A study of Mus musculus with 4 samples.

Results

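The nuclei described here were excitatory neuron nuclei of the mouse brain that carried transcripts of *Ctgf* or *Rxfp1*, a set labelled as layer 6b type. A nucleus was taken when it held at least 1 unique molecular identifier (UMI, 1 captured transcript) of *Slc17a7*, the vesicular glutamate transporter of cortical excitatory neurons, at least 1 of *Ctgf* or *Rxfp1*, and at least 4 UMIs from at least 2 genes among *Ctgf*, *Svil*, *Cobll1*, *Rxfp1* and *Nr4a2*. Nuclei with any UMI of *Gad1* or *Gad2* (GABA synthesis), *Syt6* (layer 6 corticothalamic neurons), *Flt1* or *Cldn5* (endothelium) were left out. The rule took 795 of 52132 nuclei, 264 and 201 in the 2 wild-type (WT) libraries and 134 and 196 in the 2 *Csf1r*+/- (HET) libraries. They are called *Ctgf*/*Rxfp1* nuclei below, because the other genes of layer 6b went with only some of them.

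The study asked how loss of 1 copy of *Csf1r*, the receptor through which colony stimulating factor-1 and interleukin-34 maintain microglia, alters brain cells before disease. Nuclei were isolated without detergent from brains of perfused 2-month-old female C57/BL6 mice, myelin was removed with magnetic beads, and 3′ transcripts were counted in droplets. Each library was 1 mouse, WT or *Csf1r*+/-, with no treatment, so n = 2 mice per genotype. Another mouse per genotype is not used here.

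Layer 6b is the deepest layer of the neocortex, next to the white matter, and holds neurons that persist from the embryonic subplate, among the earliest born neurons of the cortex. *Ctgf* encodes a secreted matricellular protein used as its classical marker. *Nr4a2*, an orphan nuclear receptor, is also known from the claustrum, a thin sheet of neurons beneath the insular cortex, and from related deep cortical neurons. The neighbouring layer 6 corticothalamic neurons express *Syt6* and *Foxp2*, and layer 5 near-projecting neurons express *Tshz2*.

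Levels are given as CPM, the UMIs of a gene scaled to a common library total, from counts summed over the nuclei of a kind in each library, in the order WT replicate 1, WT replicate 2, HET replicate 1 and HET replicate 2 unless said otherwise. The *Ctgf*/*Rxfp1* nuclei held 3194585, 1919818, 1719423 and 2114684 UMIs in all, and a median of 10013.5, 7960, 10879.5 and 9102 UMIs per nucleus. WT replicate 2 stood apart. The median mitochondrial share of its members was 0.445% of UMIs, against 0.114% in WT replicate 1, 0.224% in HET replicate 1 and 0.136% in HET replicate 2. Its ribosomal protein transcripts made up 0.211% of their UMIs, against 0.0948%, 0.117% and 0.101% in the same order. The genotype results below name the values that moved without this library. Any 2 libraries shared 33 to 68 cell barcodes, 0.344% to 0.465% of the smaller library.

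*Csf1r* itself gave 2, 5, 10 and 13 UMIs in the *Ctgf*/*Rxfp1* nuclei, or 0.626, 2.60, 5.82 and 6.15 CPM, and 3.04, 6.53, 6.68 and 6.36 CPM over all nuclei kept. It was not lower in the HET libraries. The microglial marker list summed to 40.7, 77.1, 91.9 and 81.3 CPM in the *Ctgf*/*Rxfp1* nuclei, with *P2ry12* as its most abundant gene. How the counted 3′ part of the transcript relates to the altered allele was not given in the sources used here, so these counts check nothing about the genotype labels.

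The genes of the rule are described without a test. *Rxfp1*, which encodes a receptor of the hormone relaxin, was detected in 89.3% of the 795 nuclei and *Nr4a2* in 76.2%. *Cobll1* was detected in 41.3%, *Svil*, an actin-binding protein gene, in 28.2%, and *Ctgf* in only 26.7%. For comparison, *Ctgf* was detected in 1.02% of all other *Slc17a7* nuclei. *Ctgf* stood at 44.8, 56.3, 52.3 and 40.2 CPM and *Rxfp1* at 331, 322, 265 and 361 CPM. *Nr4a2* stood at 247, 185, 204 and 213 CPM and *Svil* at 81.4, 111, 238 and 129.6 CPM, with *Svil* highest in HET replicate 1. Just 2 of the 5 genes were detected in 408 nuclei, 3 in 300, 4 in 71 and all 5 in 16. The marker UMIs of a nucleus had a median of 7 and a maximum of 43.

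At the edge of the rule, 115 members held exactly 4 marker UMIs and 130 nuclei met every other criterion with 3. *Moxd1*, a monooxygenase-like gene of layer 6b not used by the rule, stood at 43.5 ± 39.7 CPM (SD, n = 4) just inside and 14.3 ± 18.6 CPM just outside. *Inpp4b*, a phosphoinositide phosphatase gene, stood at 591 ± 224 and 428 ± 131 CPM, and the neuronal marker *Rbfox3* at 377 ± 71.8 and 372 ± 30.3 CPM. The nuclei on both sides of the edge overlapped in all 3 genes.

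The 795 nuclei held more than 1 kind. A *Ctgf* UMI was found in 212 of them (71, 49, 44 and 48), here the *Ctgf*-positive nuclei. The other 583 (193, 152, 90 and 148) had been taken through *Rxfp1* alone and are called *Rxfp1*-only nuclei. Both were of like depth, with a median of 9973, 7192, 11453 and 9730.5 UMIs in the *Ctgf*-positive nuclei and 10058, 8207, 10541 and 9014 in the *Rxfp1*-only nuclei. A nucleus without a *Ctgf* UMI may still have expressed the gene below detection.

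Most tested genes of layer 6b that the rule did not use were higher in the *Ctgf*-positive nuclei, and the tested genes of the claustrum list were higher in the *Rxfp1*-only nuclei. Counts were summed per library and kind and compared within libraries with edgeR's quasi-likelihood test, Benjamini-Hochberg adjusted over 8562 genes. In all, 1202 genes differed (14%), with 572 higher in *Ctgf*-positive nuclei (6.68%) and 630 lower (7.36%). Of the 14 layer 6b genes outside the rule, 11 passed the filter on low values (detection in 10% of nuclei of either kind) and 10 of these were higher, with a median log2 fold change of 1.63 against 0.01 over all genes tested. Without the filter 13 were tested, 12 were higher, *Nxph4* and *Hcrtr2* among them, and *St18* was lower. The filter favours genes that are high in 1 kind, so the counts of those that passed describe these genes only.

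*Moxd1* showed the split most sharply, at 67.4, 139, 100.4 and 130.1 CPM in the *Ctgf*-positive nuclei and 3.81, 8.22, 4.34 and 16.1 CPM in the *Rxfp1*-only nuclei. Each *Ctgf*-positive library was above each *Rxfp1*-only library, and the log2 fold change was 3.76 ± 0.22 (SE; adjusted p = 7.64e-09). *Cplx3*, a complexin that acts in vesicle release, stood at 13.2, 30.4, 21.1 and 16.0 and 2.54, 2.06, 2.60 and 0 CPM, with a log2 fold change of 3.32 ± 0.45 (SE; adjusted p = 4.88e-05). *Inpp4b* stood at 1975, 1838, 1520.0 and 1827 CPM against 322, 323, 295 and 297 CPM, 2.55 ± 0.08 (SE; adjusted p = 4.22e-12) on the log2 scale. These 3 genes separated the kinds in all 4 libraries with no overlap.

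*Kcnab1*, a potassium channel beta subunit gene, stood at 1246, 1135, 1347 and 1325 CPM against 321, 362, 305 and 321 CPM, with a log2 fold change of 1.97 ± 0.09 (SE; adjusted p = 7.62e-10). Among receptors of the list, *Lpar1*, the lysophosphatidic acid receptor, stood at 83.1, 115, 98.6 and 96.1 against 30.0, 48.0, 44.3 and 47.1 CPM (log2 fold change 1.25). *Drd1*, the dopamine D1 receptor, stood at 30.1, 21.7, 24.7 and 38.0 against 11, 11, 7.81 and 6.19 CPM (log2 fold change 1.66). All 3 were higher in the *Ctgf*-positive nuclei of every library, although *Lpar1* and *Drd1* did not pass under the stricter rule given below. *Col8a1* (a collagen), *Serpini1* (neuroserpin), *Tmem163* (a zinc transporter) and *Pls3* (plastin) were higher by 1.63, 1.21, 0.70 and 0.46 on the log2 scale. The orexin receptor gene *Hcrtr2* differed by 0.77 ± 0.29 (SE) and did not pass (adjusted p = 0.11), but passed without WT replicate 2. *Nxph4*, a neurexophilin gene often used for layer 6b, was too sparse to pass the filter, at 8.43, 4.34, 3.52 and 10.0 CPM in the *Ctgf*-positive nuclei.

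The claustrum list moved the other way. *Synpr*, a synaptic vesicle protein gene, stood at 409.9, 199, 207 and 255 CPM in the *Rxfp1*-only nuclei and 149, 41.2, 7.05 and 22.0 CPM in the *Ctgf*-positive nuclei. *Gnb4*, a G protein beta subunit gene, stood at 208, 79.5, 79.0 and 134 and 78.2, 19.5, 10.6 and 16.0 CPM. WT replicate 1 was the highest library of both kinds for both genes. The log2 fold changes of the *Ctgf*-positive nuclei were -2.32 ± 0.27 (SE; adjusted p = 8.82e-06) for *Synpr* and -1.95 ± 0.21 (SE; adjusted p = 4.24e-06) for *Gnb4*. They were -2.19 for *Ntng2* (netrin-G2), -2.01 for *Oprk1* (the kappa opioid receptor) and -1.24 for *Nr2f2* (an orphan nuclear receptor), so that the 5 genes tested, of 7 in the list, were all lower, with a median of -2.01. *Nr2f2* did not pass when any 1 library was left out. Under a stricter rule (at least 6 marker UMIs from at least 3 genes) 245 of 8844 genes were higher and 251 lower. Of the lists, 5 of 11 layer 6b genes were higher and 2 of 5 claustrum genes were lower, with medians of 1.15 and -1.06. *Moxd1*, *Inpp4b*, *Kcnab1*, *Serpini1* and *Tmem163* were the 5 that passed, as did *Oprk1* and *Ntng2*. *Cplx3* went to 1.79 on the log2 scale (adjusted p = 0.118), *Lpar1* to 0.46 (adjusted p = 0.337), *Drd1* to 1.25 (adjusted p = 0.0954) and *Col8a1* to 1.15 (adjusted p = 0.0594), and none of these passed, nor did *Pls3*. *Synpr* (-1.06, adjusted p = 0.0609), *Gnb4* (-0.90, adjusted p = 0.0773) and *Nr2f2* (-0.73, adjusted p = 0.514) did not pass either.

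**Figure D1:**
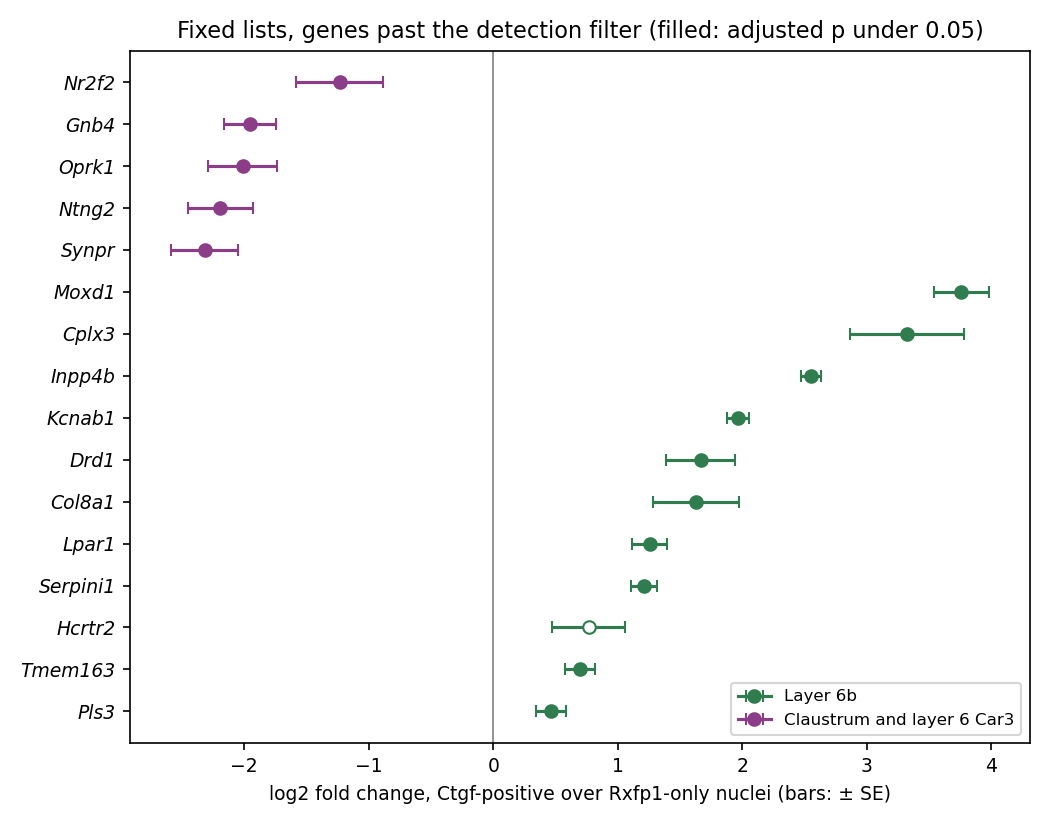
Log2 fold change of *Ctgf*-positive over *Rxfp1*-only nuclei (horizontal axis) for the tested genes of the layer 6b and claustrum lists. Bars give the standard error derived from the quasi-likelihood test. *Moxd1* lies farthest to the right at 3.76 and *Synpr* farthest to the left at -2.32.

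The 8 genes highest in the *Ctgf*-positive nuclei by log2 fold change and the 8 lowest lay mostly outside those lists. *Fbxl7*, which encodes an F-box protein of ubiquitin ligases, stood at 442, 519, 391 and 444 CPM in the *Ctgf*-positive nuclei and 22.8, 37.7, 7.81 and 46.4 CPM in the others, a log2 fold change of 4.01 ± 0.20 (SE; adjusted p = 2.02e-09). *Kank4* (log2 fold change 4.09), *Olfr111* (3.45), *Gm49267* and 1700047F07Rik were also among the genes highest in *Ctgf*-positive nuclei, as were *Moxd1* and *Cplx3*. *Ndst4*, a heparan sulfate modifying enzyme gene, stood at 170.1, 55.5, 135 and 29.1 CPM in the *Rxfp1*-only nuclei and 7.22, 0, 1.76 and 6.0 CPM in the *Ctgf*-positive nuclei (log2 fold change -4.63). *Dkk2*, a secreted Wnt modulator, stood at 8.88, 30.8, 38.2 and 32.2 and 1.2, 6.51, 0 and 0 CPM (log2 fold change -3.77). *Gm43154* gave 98 UMIs in the *Rxfp1*-only nuclei and none in the *Ctgf*-positive nuclei, at least 11.7-fold lower when 3 counts over all libraries are taken as the floor. With log2 fold changes in parentheses, *Iqcj* (-4.48), *Col5a1* (-3.23), *Qrfpr* (-2.92), 6430573F11Rik and *Cracr2a* (-2.79) were the others.

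Genes of neighbouring cortical kinds also differed within the 795 nuclei. Of 8 corticothalamic genes tested, 5 were higher in the *Ctgf*-positive nuclei and none lower, with a median of 0.78, where 6.68% of all genes tested were higher and 7.36% lower. Without WT replicate 1, where 434 of 8660 genes were higher, 3 of 8 were higher, *Grik3*, *Hs3st4* and *Tle4*, with a median of 0.71. Under the stricter rule, where 245 of 8844 genes were higher and 251 lower, 2 were higher, *Hs3st4* and *Tle4*, with a median of 0.24. *Hs3st4*, a heparan sulfate sulfotransferase gene, stood at 3534, 4141, 3917 and 3806 CPM against 1819, 2013, 1522 and 2294 CPM, and the corepressor gene *Tle4* at 702, 659.8, 763 and 742 against 299, 331, 260.5 and 380.2 CPM. Both were higher in every library. Of 5 intratelencephalic genes tested, *Cux2*, *Cux1* and *Rorb* were lower and 1 was higher. *Cux2*, a homeobox gene of upper layers, stood at 86.7, 23.9, 17.6 and 8.0 against 205, 136, 106 and 144 CPM (log2 fold change -2.03).

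A few markers of other cell types also differed between these kinds. The astrocyte list of 8 genes, led by *Slc4a4*, summed to 75.8, 93.3, 33.5 and 52.0 CPM in the *Ctgf*-positive nuclei and 164, 138, 118 and 180 CPM in the *Rxfp1*-only nuclei, with no overlap. *Slc4a4*, a bicarbonate transporter gene, was most of that sum except in the *Ctgf*-positive nuclei of WT replicate 2, at 65.0, 45.6, 24.7 and 50.0 against 154, 106, 103 and 170 CPM. It alone passed the detection filter and was lower in the *Ctgf*-positive nuclei (log2 fold change -1.49, adjusted p = 2.80e-06). Without the filter 5 astrocyte genes were tested, 2 were above 0 and 3 below, and *Slc4a4* was the one called. *Aqp4* and *Gja1*, 2 astrocyte genes, were near 0 in both kinds. *Aqp4* stood at 0.301 ± 0.602 against 2.39 ± 1.79 CPM (SD, n = 4) and *Gja1* at 0.983 ± 1.15 against 1.12 ± 1.56 CPM, and the libraries overlapped for both. The list's other genes held the rest of the sum and are not given one by one. The interneuron list of 12 genes, led by *Nxph1*, summed to 291, 447, 49.3 and 286 against 362, 376, 542 and 409 CPM, which overlapped, with *Gad1* and *Gad2* at 0 as the rule fixes. Of its 4 genes tested *Lamp5* was lower (log2 fold change -0.997, adjusted p = 0.0357). Without WT replicate 1 *Nxph1* was called lower and *Lamp5* was not. Without the filter 3 of 7 interneuron genes tested were lower, *Lamp5*, *Nxph1* and *Adarb2*. *Slc17a6*, the glutamate transporter of subcortical neurons and the gene tested of that list of 3, was also lower (log2 fold change -1.34, adjusted p = 0.0134), and the list summed to 30.1, 19.5, 1.76 and 58.0 against 38.1, 42.5, 47.8 and 57.6 CPM. Under the stricter rule *Slc4a4* was still lower, at -1.88, and neither *Lamp5* nor *Slc17a6* passed. *Mpped1*, the gene tested of 4 hippocampal genes, was higher by 0.82 on the log2 scale, and of 2 oligodendrocyte and 2 microglial genes tested none passed. Without the filter, where 597 of 14143 genes were higher and 799 lower, *Mbp* was lower among 7 oligodendrocyte genes tested. None of 8 microglial genes was called. The part of these markers in the split was not tested.

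Some receptor genes were higher and others lower, beside 6.68% of all genes tested that were higher and 7.36% that were lower. Of 25 neuromodulator receptor genes tested, 3 were higher in the *Ctgf*-positive nuclei, namely *Drd1*, *Oprm1* and *Hrh1*, and 4 were lower, namely *Cnr1*, *Oprk1*, *Htr4* and *Htr2c*. *Oprm1*, the mu opioid receptor, stood at 190.2, 230.0, 284 and 342 CPM against 95.2, 122, 83.4 and 130.0 CPM (log2 fold change 1.28), while *Cnr1*, the cannabinoid receptor, stood at 3.61, 17.4, 15.9 and 6.0 against 55, 48.0, 60.8 and 22.3 CPM (log2 fold change -2.25). The opioid receptor genes *Oprm1* and *Oprk1* thus lay on opposite sides of the split. Of 36 glutamate and GABA receptor genes tested, 4 were higher and 17 lower, with a median of -0.28. *Glra2*, a glycine receptor subunit gene in that list, stood at 136, 106, 122 and 148 against 39.8, 59.6, 23.4 and 36.5 CPM (log2 fold change 1.73), and *Grin3a*, an NMDA receptor subunit gene, at 54.2, 54.3, 19.4 and 30.0 against 126, 131, 122 and 139 CPM (log2 fold change -1.67).

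Of 47 axon guidance and adhesion genes, 12 were higher and 20 lower, where 6.68% of all genes tested were higher and 7.36% lower. Of 20 extracellular matrix genes, 9 were higher and 7 lower, and without WT replicate 1, 8 of 19 were higher and 3 lower. Of 31 transcription factor genes, 10 were higher and 12 lower, among them *Etv1*, at 12, 26.0, 12.3 and 24.0 CPM in *Ctgf*-positive and 93.1, 63.7, 87.7 and 67.5 CPM in *Rxfp1*-only nuclei (log2 fold change -2.15). Under the stricter rule, where 245 of 8844 genes were higher and 251 lower, 8 of 47 adhesion genes were higher and 12 lower, 4 of 19 matrix genes were higher and 3 lower, and 5 of 31 transcription factor genes were higher and 7 lower. Of 25 neuromodulator receptor genes 2 were then higher and 2 lower, and of 36 glutamate and GABA receptor genes 1 and 12.

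Part of the *Rxfp1*-only nuclei carried the claustrum genes together. At least 5 UMIs of the 7 claustrum genes were found in 198 of the 795 nuclei (24.9%). They were 32.2% of the *Rxfp1*-only nuclei and 4.72% of the *Ctgf*-positive nuclei. By library they were 34.5% and 22.4% of the members in WT and 14.9% and 21.4% in HET. Both HET libraries lay below both WT libraries, but WT replicate 2 and HET replicate 2 were close. This difference was not tested, and the cutoff of 5 UMIs was not adjusted for depth. *Car3*, carbonic anhydrase 3, stood at 9.39, 5.73, 3.49 and 8.51 CPM in the *Ctgf*/*Rxfp1* nuclei and gave no UMI in the *Syt6* nuclei described below, at least 41.4-fold higher on a floor of 3 counts over the group.

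When the 795 nuclei were clustered on their own they fell into 11 groups, given here as a description with no test, since clustering used all genes. Of these, 3 groups carried most of the *Ctgf*-positive nuclei. Group 4 (75 nuclei, 88% with *Ctgf*) led with *Fbxl7*, *Olfr111*, *Inpp4b*, *Moxd1* and *Reln*, group 5 (75 nuclei, 74.7%) with *Col8a1*, *Pappa2* and *Pth2r*, and group 7 (55 nuclei, 81.8%) with *Moxd1*, *Col19a1* and *Htr7*. *Moxd1* stood at 178, 31.3 and 196 CPM in groups 4, 5 and 7, and at 0 in groups 1, 3, 6, 9, 10 and 11. *Inpp4b* and *Kcnab1* were also highest in groups 4, 5 and 7, but not every layer 6b gene was. *Tmem163* stood at 669, 261 and 473 CPM there and at 710 and 974 CPM in groups 1 and 9. *Lpar1* stood at 147, 64.9 and 109 CPM in groups 4, 5 and 7 and at 144 CPM in group 3. Groups 1 (127 nuclei) and 9 (44 nuclei) led with claustrum genes and others, *Smoc2*, *Oprk1*, *Ntng2* and *Synpr* in group 1 and *Ltbp1*, *Col24a1* and *Gnb4* in group 9. *Synpr* stood at 896 and 1138 CPM there. A *Ctgf* UMI was found in 7.09% of group 1 and in 0 of 44 nuclei of group 9. The latter allows up to 6.82% of nuclei with a *Ctgf* UMI, for counting error only, and sets no limit on nuclei that expressed the gene below detection.

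Groups 3 (104 nuclei), 6 (72) and 8 (52) held few *Ctgf* nuclei, with a *Ctgf* UMI in 0 of 104, 12.5% and 15.4% (0 of 104 allows up to 2.88% with a UMI). Their corticothalamic genes summed to 6897, 6964 and 6809 CPM, against 6978 CPM over the *Syt6* nuclei, the mean of 4 libraries. The *Ctgf*-rich groups 4, 5 and 7 held this list too, at 5766, 8128 and 7458 CPM. The near-projecting list summed to 2660 CPM in group 6, against 2027 CPM over the *Tshz2* nuclei. The rules partly fix both comparisons. The *Syt6* nuclei were picked on genes of the corticothalamic list and the *Tshz2* nuclei on genes of the near-projecting list. *Syt6*, a gene of the corticothalamic list, was 0 in every member by the rule. Group 3 led with *Dkk2*, *Gm43154* and *Meis2*, group 6 with *Nxph1*, *Kcnh8* and *Tshz2*, and group 8 with *Sema3c*, *Prex2* and *Lrmda*. Group 2 (119 nuclei) led with *Vav3*, *Thsd7a* and *Tcf7l2* and had the highest median depth, 15431 UMIs. Of its nuclei 49.6% had a high doublet score, against 12.7% of all members. Group 10 (42 nuclei, led by 9330185C12Rik and *Plch1*) had 26.2% such nuclei, and group 11 (30 nuclei, led by *Stac* and *Gm2164*) 6.67%. With nuclei of high doublet score left out, 9 of the 11 layer 6b genes tested were higher in the *Ctgf*-positive nuclei and 5 of 5 claustrum genes were lower. Over all 8333 genes tested then, 548 were higher and 626 lower.

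**Figure D2:**
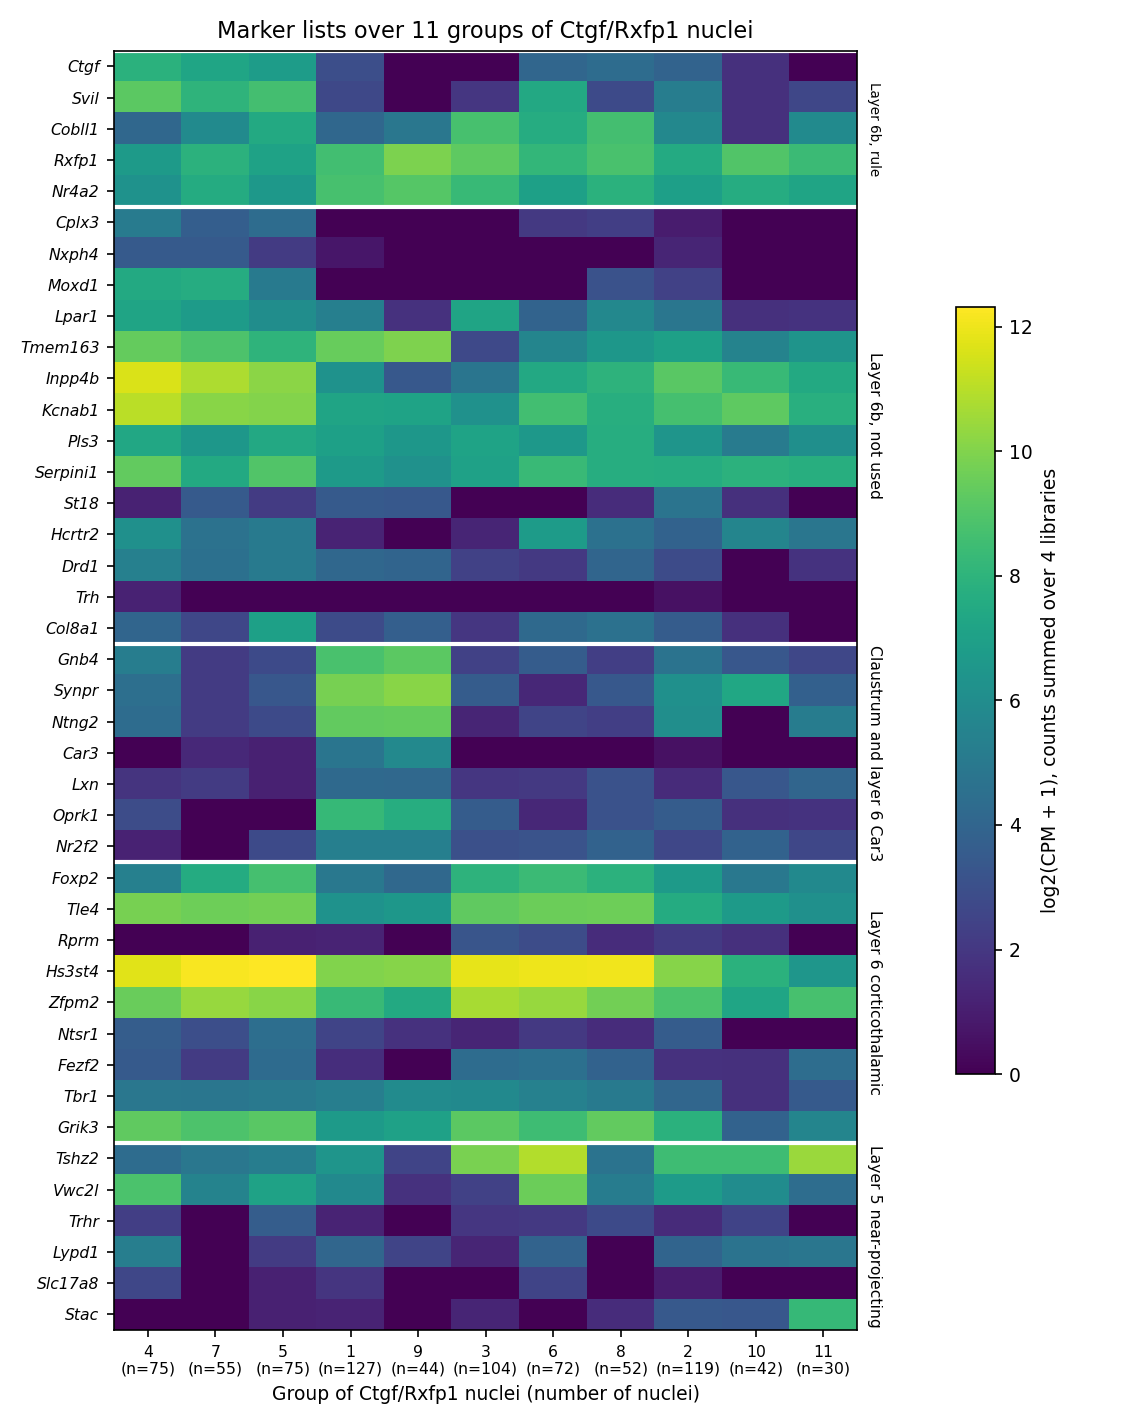
Level of marker genes, as log2(CPM + 1), in each of the 11 groups of *Ctgf*/*Rxfp1* nuclei, with genes as horizontal strips sorted by list and groups as vertical strips sorted by kind. *Moxd1* is high in groups 4 and 7, and *Synpr* in groups 1 and 9.

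Every group held nuclei of all 4 libraries. Group 1 made up 24.6% and 15.9% of the members in the WT libraries and 5.97% and 11.2% in the HET libraries. Group 9, which also carried claustrum genes, went the other way, at 4.55% and 3.98% in WT and 5.97% and 8.16% in HET. Groups 4 and 6 were also higher in both HET libraries without overlap, and group 11 was lower. All groups are shown in the plot of group shares, and no test of them was made.

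**Figure D3:**
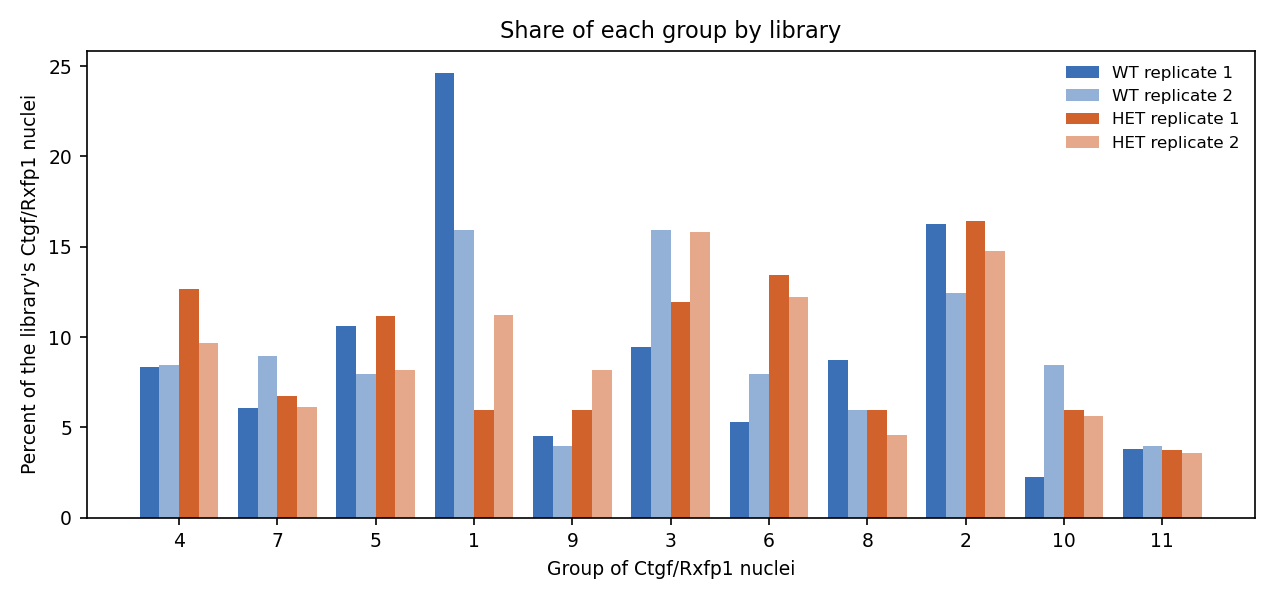
Share of each library's *Ctgf*/*Rxfp1* nuclei (vertical axis, percent) in each of the 11 groups (horizontal axis), with 1 bar per library. Group 1 runs from 5.97% in HET replicate 1 to 24.6% in WT replicate 1.

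For comparison, 2 other excitatory kinds were taken from the same 4 libraries. The *Syt6* nuclei (1696) carried *Syt6* and other corticothalamic genes without *Ctgf* or *Rxfp1*, and the *Tshz2* nuclei (1671) carried *Tshz2* and other near-projecting genes without *Ctgf*, *Rxfp1* or *Syt6*. Genes of either rule were left out of each test.

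Against the *Syt6* nuclei, 1814 of 8340 genes differed (21.8%), with 974 higher in the *Ctgf*/*Rxfp1* nuclei (11.7%) and 840 lower (10.1%). Of the layer 6b list 9 genes were tested, of which 8 were higher and *Hcrtr2* was lower, with a median log2 fold change of 1.85 against -0.01 over all genes. *Moxd1* stood at 20.3, 39.6, 36.1 and 43.0 CPM against 1.25, 2.48, 0 and 0.619 CPM in the *Syt6* nuclei, with a log2 fold change of 5.06 ± 0.32 (SE; adjusted p = 3.33e-09). It was detected in 13% of the *Ctgf*/*Rxfp1* nuclei and 0.767% of the *Syt6* nuclei. The *Syt6* nuclei had median depths of 8514, 6797, 10236 and 9392 UMIs. *Tmem163* stood at 339, 329, 295 and 315 against 24.6, 30.9, 17.6 and 20.6 CPM (log2 fold change 3.79 ± 0.09 SE, adjusted p = 6.09e-14). Neither gene overlapped between the kinds. Within the members *Tmem163* was highest in groups 1 and 9, at 710 and 974 CPM. In the *Ctgf*-positive nuclei alone the log2 fold changes were larger, 6.71 for *Moxd1* and 4.26 for *Tmem163*. There 10 of 11 layer 6b genes tested were higher with a median of 3.22, beside 765 of 8366 over all genes.

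All 5 claustrum genes tested were also higher than in the *Syt6* nuclei, with a median of 3.30. Of all genes tested 11.7% were higher. The filter favours genes that are high in 1 kind, so this count describes these 5 genes only. *Oprk1* stood at 96.7, 40.6, 30.2 and 62.9 CPM against 3.76, 2.76, 2.15 and 3.51 CPM and *Ntng2* at 211, 144, 112 and 139 against 14.5, 15.7, 16.1 and 11.2 CPM. Without the 198 nuclei that carried the claustrum genes, the log2 fold change of *Ntng2* went from 3.38 to -0.0037 and that of *Synpr* from 3.30 to -0.49, as that choice of nuclei fixes, while that of *Moxd1* was 5.45. *Col11a1*, a collagen gene, went from 3.60 to 1.10.

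Other large differences from the *Syt6* nuclei lay outside the marker lists. *Rgs12*, a regulator of G protein signalling, stood at 57.6, 60.4, 40.1 and 41.1 CPM against 3.51, 4.69, 2.15 and 0.619 CPM (log2 fold change 4.23). *Lypd6* and *Lypd6b*, both genes of Ly6 family proteins that bind nicotinic receptors, were higher by 3.76 and 3.40 on the log2 scale. *Galnt14*, which starts O-linked glycosylation, stood at 307, 244, 238 and 253 against 18.5, 32.3, 29.0 and 21.1 CPM (log2 fold change 3.38), and *Fbxl7* had a log2 fold change of 3.47. *Cntnap3*, *AC124490.1*, *Gm37640* and *Adgrg6* were the rest of the 15 genes with the largest positive differences, with *Moxd1*, *Oprk1*, *Tmem163*, *Col11a1*, *Ntng2* and *Synpr*. Some were uneven within the members. *Cntnap3* stood at 349 CPM in group 1 against 45.4 CPM in the other members, and *Gm37640* at 140 CPM in group 9 against 14.6 CPM. *Adgrg6* was among the leading genes of groups 4 and 7.

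Among the genes lower than in the *Syt6* nuclei, *Gm10635* stood at 0, 8.86, 4.65 and 2.84 CPM against 139.8, 137, 153 and 106 CPM (log2 fold change -5.24 ± 0.26 SE, adjusted p = 1.63e-10). *Cpa6*, an extracellular carboxypeptidase, stood at 13.5, 14.1, 2.33 and 4.26 against 134, 133, 99.0 and 124 CPM (log2 fold change -3.77 ± 0.18 SE, adjusted p = 1.23e-10), and *Tmem196* at 32.2, 26.6, 28.5 and 26.5 against 162, 129, 100.1 and 147 CPM (log2 fold change -2.25). None of the 3 overlapped between the kinds. In the *Ctgf*-positive nuclei alone the log2 fold change of *Cpa6* was -5.33. *Igfbp4*, an insulin-like growth factor binding protein gene, had a log2 fold change of -2.28 and *Col12a1* of -1.85. Of 5 corticothalamic genes tested, *Zfpm2*, *Hs3st4* and *Grik3* were lower, with a median of -0.38 over the 5, where 10.1% of all genes tested were lower. *Hs3st4* stood at 2265, 2524, 2313 and 2651 against 3296, 3355, 2835 and 3192 CPM.

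Of 25 neuromodulator receptor genes, 10 were higher than in the *Syt6* nuclei and 8 lower, where 11.7% of all genes tested were higher and 10.1% lower. *Htr2a*, the serotonin 2A receptor, stood at 89.2, 105, 87.2 and 82.8 CPM against 10.5, 18.2, 14.8 and 12.8 CPM (log2 fold change 2.70 ± 0.11 SE, adjusted p = 1.43e-11). *Chrm2*, a muscarinic acetylcholine receptor, stood at 145, 135, 124 and 119 against 64.6, 44.1, 48.1 and 39.9 CPM (log2 fold change 1.41), and *Drd1* at 16.0, 13.5, 13.4 and 13.7 against 4.26, 8.83, 3.44 and 4.75 CPM (log2 fold change 1.45). All 3 were higher in each library. *Chrna5*, a nicotinic receptor subunit gene known from layer 6, was lower, at 5.01, 1.56, 3.49 and 7.57 against 9.02, 21.2, 22.8 and 11.6 CPM (log2 fold change -1.70), as were *Adra1a*, *Adra1b*, *Cckbr*, *Htr1f*, *Hcrtr2*, *Htr4* and *Oprm1*. *Hcrtr2* stood at 18.8, 34.4, 30.2 and 29.3 against 28.1, 60.7, 54.6 and 31.8 CPM (log2 fold change -0.61 ± 0.12 SE, adjusted p = 0.00133), but in the *Ctgf*-positive nuclei alone its difference was -0.12 and did not pass.

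Of 35 potassium channel genes 10 were higher and 12 lower than in the *Syt6* nuclei, of 36 glutamate and GABA receptor genes 9 and 17, and of 47 axon guidance and adhesion genes 22 and 16, beside 11.7% of all genes tested that were higher and 10.1% that were lower. *Kcnn3*, a calcium-activated potassium channel, stood at 78.9, 73.4, 89.0 and 68.1 CPM against 17.5, 18.2, 17.0 and 16.9 CPM (log2 fold change 2.14). *Unc5c*, a netrin receptor, stood at 1092, 883, 758 and 991 against 254, 239, 194 and 226 CPM (log2 fold change 2.02), and *Nrp2*, a semaphorin receptor, at 88, 75.5, 85.5 and 77.6 against 27.8, 28.4, 24.7 and 25.0 CPM (log2 fold change 1.62). These genes were higher in all 4 libraries. *Grm8*, a metabotropic glutamate receptor, was lower, at 506, 502, 711 and 546 against 1403, 1105, 1333 and 1228 CPM (log2 fold change -1.18).

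**Figure D4:**
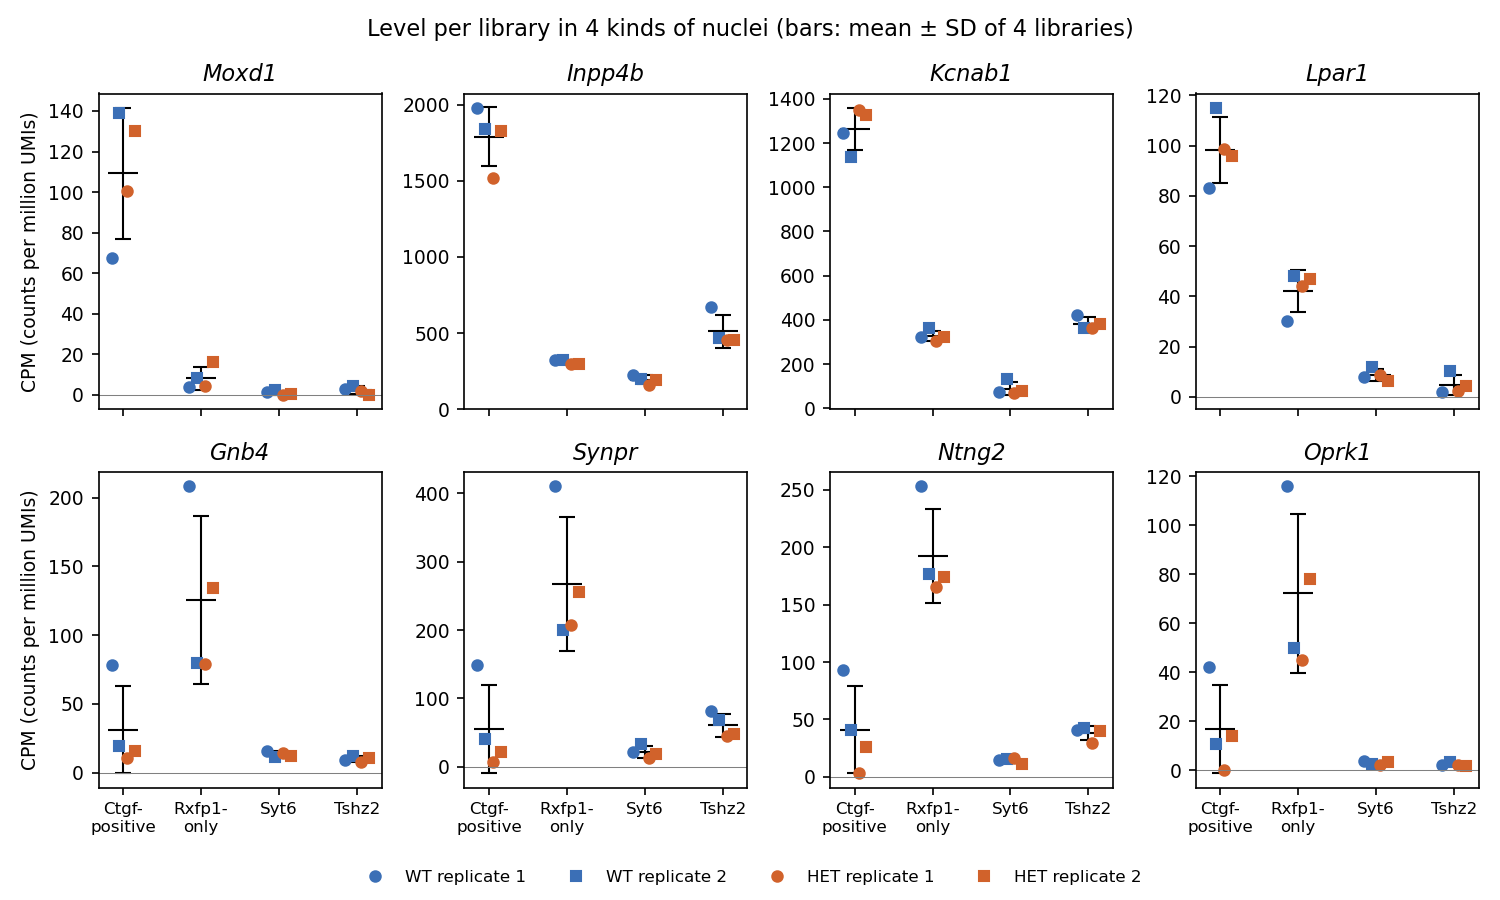
Level (CPM, vertical axes) of 4 layer 6b genes (*Moxd1*, *Inpp4b*, *Kcnab1*, *Lpar1*) and 4 claustrum genes (*Gnb4*, *Synpr*, *Ntng2*, *Oprk1*) in 4 kinds of nuclei, with 1 point per library and bars for the mean ± SD of the 4 libraries. The layer 6b genes are highest in the *Ctgf*-positive nuclei and the claustrum genes in the *Rxfp1*-only nuclei.

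Against the *Tshz2* nuclei, 1897 of 8478 genes differed (22.4%), with 956 higher in the *Ctgf*/*Rxfp1* nuclei (11.3%) and 941 lower (11.1%). Of 9 layer 6b genes tested 8 were higher, with a median of 1.02. In the *Ctgf*-positive nuclei alone 11 of 11 were higher, with a median of 1.84, beside 860 of 8584 over all genes. *Lpar1* stood at 43.8, 64.1, 62.2 and 58.6 CPM against 1.94, 10.3, 2.27 and 4.18 CPM (log2 fold change 3.72 ± 0.22 SE, adjusted p = 1.06e-09). *Sulf1*, which removes sulfate from extracellular heparan sulfate, stood at 167, 149, 134 and 119 against 15.8, 18.8, 9.90 and 18.8 CPM (log2 fold change 3.17 ± 0.12 SE, adjusted p = 1.42e-11). Both were separated without overlap. *Inpp4b* differed less here, at 752, 687, 699.7 and 659 against 671, 467, 454 and 452 CPM (log2 fold change 0.48 ± 0.07 SE, adjusted p = 4.22e-05), and 6 of 7 corticothalamic genes were higher, with a median of 1.18.

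The 15 genes highest over the *Tshz2* nuclei, with log2 fold changes in parentheses, also held *Oprk1* (4.57), *Rgs12* (3.91), *Moxd1* (3.91), *Gnb4* (3.35), *Col11a1* (3.04, or 0.52 without the claustrum-gene nuclei, adjusted p = 0.0573), *Fbxl7* (2.77), *Drd1* (2.74) and *Arhgap25* (2.57), with *Gm37640*, *Cntnap3*, E130114P18Rik, *Gfra1* (a receptor of glial cell line-derived neurotrophic factor) and *Lypd6*. Within the members, *Cntnap3* and *Gfra1* were among the leading genes of group 1 and *Gm37640* of group 9. Among the genes lower than in the *Tshz2* nuclei, *Unc13c*, a gene of synaptic vesicle priming, stood at 11.9, 28.1, 16.9 and 23.6 CPM against 131, 151, 129 and 143 CPM (log2 fold change -2.82 ± 0.12 SE, adjusted p = 4.37e-11). *Grik1*, a kainate receptor subunit gene, stood at 82.6, 52.1, 54.1 and 52.0 against 395, 306, 417 and 326 CPM (log2 fold change -2.55), and *Tcf7l2*, a Wnt pathway transcription factor, at 15.3, 10.4, 12.2 and 15.1 against 127, 51.6, 65.2 and 73.4 CPM (log2 fold change -2.61). None of the 3 overlapped. *Tcf7l2* and *Slc17a6* are markers of subcortical glutamatergic neurons, and both were lower. Of 4 interneuron genes tested, *Adarb2*, *Erbb4* and *Nxph1* were lower too. By mean sum over the libraries, the *Tshz2* nuclei held more of the interneuron, subcortical, astrocyte, oligodendrocyte and mural lists. They held less of the hippocampal list (86.9 against 163 CPM) and of the endothelial and precursor lists. The microglial list was alike, at 71.4 against 72.8 CPM. The part of other cell types' markers in these differences was not tested.

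Of 10 immediate early genes, which neurons switch on with activity, 7 were higher than in the *Tshz2* nuclei, with a median of 0.59, where 11.3% of all genes tested were higher and their median was 0.00. Under the stricter rule 5 of 10 were higher, beside 884 of 8604 over all genes tested. *Npas4* stood at 62.6, 15.1, 25.0 and 26.0 CPM against 22.1, 5.99, 9.70 and 22.2 CPM, *Btg2* at 34.4, 20.3, 19.2 and 12.3 against 17.2, 8.84, 8.46 and 8.75 CPM and *Junb* at 43.2, 24.5, 18.0 and 20.3 against 20.6, 16.3, 10.9 and 15.4 CPM. WT replicate 1 was the highest library of the *Ctgf*/*Rxfp1* nuclei for all 3. Against the *Syt6* nuclei the list was mixed, with *Bdnf* and *Nr4a3* higher and *Arc*, *Egr1* and *Homer1* lower. Under the stricter rule none was higher there and 3 were lower, beside 720 higher and 666 lower of 8440 genes tested.

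Over all other *Slc17a7* nuclei (18387), the genes outside the rule with the highest ratio of pooled CPM were *Moxd1* (17.1-fold, 32.9 against 1.92 CPM), *Gm6602* (13.6-fold), *Oprk1* (12.3-fold, 63.9 against 5.18 CPM), *Olfr111* (11.4-fold) and *Rgs12* (10.7-fold). These are a description and were not tested. Within the members, *Moxd1* and *Olfr111* were higher in the *Ctgf*-positive nuclei and *Oprk1* in the *Rxfp1*-only nuclei.

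The direction of the genotype difference in the share of *Ctgf*/*Rxfp1* nuclei depended on which nuclei were counted in the denominator. An exact permutation test over 2 mice per genotype cannot give a p under 0.05. The nuclei were 1.64% and 1.32% of the nuclei kept in WT (1.48% ± 0.226, SD, n = 2) and 1.40% and 1.75% in HET (1.58% ± 0.251), with p = 0.667 in an exact two-sided permutation test whose smallest possible p is 0.333, and the libraries overlapped. The *Slc17a7* nuclei themselves were 32.2% and 32.3% of the nuclei kept in WT and 42.9% and 44.3% in HET. Taken over *Slc17a7* nuclei the shares were 5.09% and 4.08% in WT and 3.26% and 3.95% in HET, and both HET libraries lay below both WT libraries (exact permutation p = 0.333), the opposite direction. Among nuclei with at least 3000 UMIs, which left out 22.5% and 27.2% of the nuclei kept in WT and 14.4% and 13.1% in HET, they were 2.10% and 1.77% in WT and 1.62% and 2.01% in HET (exact permutation p = 0.667). The mean was thus lower in HET here too, with overlapping libraries. With these nuclei thinned to 3000 UMIs the shares were 0.400% and 0.351% against 0.244% and 0.340% (exact permutation p = 0.333). Thinning was done only on this reduced set, whose direction had already turned. The median genes per nucleus were 3168.5 and 2896 in WT and 3389 and 3126.5 in HET (exact permutation p = 0.667). In members with at least 3000 UMIs thinned to that number they were 1444 and 1523.5 in WT and 1474 and 1474 in HET, a HET minus WT difference of -9.75.

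No gene differed between HET and WT in the *Ctgf*/*Rxfp1* nuclei at an adjusted p under 0.05 in edgeR's quasi-likelihood test of 8556 genes. At an unadjusted p under 0.05 there were 240 genes (2.81%), and at the study's threshold of 0.01 there were 47 (0.549%), 30 higher (0.351%) and 17 lower (0.199%) in HET. The balance at 0.01 depended on the choices made. More genes were lower with DESeq2 (9 higher and 15 lower), under the stricter rule (39 and 46) and in the *Ctgf*-positive nuclei alone (43 and 73). More were higher with the likelihood-ratio test (42 and 30) and without the detection filter (40 and 37). DESeq2 gave 1 gene at an adjusted p under 0.05, *Npas3*, and edgeR's likelihood-ratio test gave 4, *Cdh4*, *Npas3*, *Nr6a1os* and *Zfp536*. With HET replicate 2 left out the quasi-likelihood test gave 8 genes, *Angpt1*, *Cdh4*, *Gm32647*, *Gng12*, *Npas3*, *Rorb*, *Smoc2* and *Trpc6*, where the lone HET library was assumed to vary like the WT libraries. The HET libraries lay wholly above the WT libraries in 15.3% of genes and wholly below in 12.9%. The values that follow are those of the genes with the smallest p among such genes, and they describe these 4 mice.

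*Npas3*, a basic helix-loop-helix transcription factor of the nervous system, had the smallest p. It stood at 101, 122, 40.7 and 47.3 CPM, -1.34 ± 0.17 (SE) on the log2 scale (adjusted p = 0.0888). Both HET libraries lay below both WT libraries. In the *Ctgf*-positive nuclei alone it stood at 40.9, 49.9, 17.6 and 20.01 CPM (log2 fold change -1.27), and without the claustrum-gene nuclei the difference was -1.31. In the *Syt6* nuclei *Npas3* stood at 55.4, 92.9, 37.2 and 83.8 CPM and the genotypes overlapped, but the difference of the 2 differences, -1.11 on the log2 scale, did not pass (adjusted p = 0.349). It passed when WT replicate 1, WT replicate 2 or HET replicate 1 was left out and without the detection filter, but not without HET replicate 2.

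*Cdh4*, R-cadherin, stood at 60.7, 76.6, 16.9 and 32.2 CPM (log2 fold change -1.46 ± 0.27 SE) and *Zfp536*, a zinc finger repressor gene, at 24.4, 24.5, 9.31 and 7.09 CPM (log2 fold change -1.60). *Fstl4*, a follistatin-like gene, stood at 244, 259, 148 and 171 CPM (log2 fold change -0.67) and *Cntnap5c*, a contactin-associated protein gene, at 57.9, 71.4, 38.4 and 32.6 CPM (log2 fold change -0.87). The HET libraries were the lower ones in all 4, as the choice of genes fixes. *Smoc2*, a secreted matricellular protein gene, stood at 67.3, 52.1, 12.2 and 31.7 CPM (log2 fold change -1.44). It was the leading gene of group 1, whose share differed between the libraries in the same direction, and in the members without the claustrum-gene nuclei it stood at 2.99, 1.41, 1.41 and 3.02 CPM. *Rorb* stood at 152, 103, 56.4 and 78.5 CPM (log2 fold change -0.94), and *Arl15*, *Erbb4* and *Mdga1* had log2 fold changes of -0.58, -0.86 and -0.85.

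Among the genes higher in HET, *Gng12*, a G protein gamma subunit gene, stood at 103, 116, 230.3 and 162 CPM (log2 fold change 0.83 ± 0.18 SE), and at 206, 228, 488 and 364 CPM in the *Ctgf*-positive nuclei. *Nr6a1os*, a noncoding antisense gene, stood at 7.20, 13, 27.3 and 26.5 CPM (log2 fold change 1.46). *Muc15*, a membrane mucin gene, stood at 8.45, 16.1, 25.6 and 38.8 CPM (log2 fold change 1.45). The 4 libraries of *Gng12* in the *Syt6* nuclei, 126, 188, 233 and 168 CPM, overlapped between genotypes. *Pcdh11x*, an X-linked protocadherin gene, stood at 137, 155, 229 and 211 CPM (log2 fold change 0.59) and *Jag2*, a Notch ligand gene, at 9.70, 8.86, 19.2 and 24.1 CPM (log2 fold change 1.20). *Gm15584*, *Gm26905*, *Gm48091*, *Gm11713* and *Vwc2l* were the others, with log2 fold changes of 0.85, 0.74, 0.61, 1.47 and 0.58, and *Vwc2l* turned to -0.23 in the *Ctgf*-positive nuclei alone. None of these 20 genes had an adjusted p under 0.05. In the *Syt6* nuclei *Pcdh11x*, at 289, 183, 373 and 328 CPM, *Gm15584* and *Vwc2l* were also higher in both HET libraries without overlap. *Zfp536*, at 24.8, 40.3, 16.5 and 16.7 CPM there, *Erbb4* and *Arl15* were also lower in both. *Smoc2* went slightly the other way there, at 5.26, 5.24, 5.59 and 5.78 CPM.

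**Figure D5:**
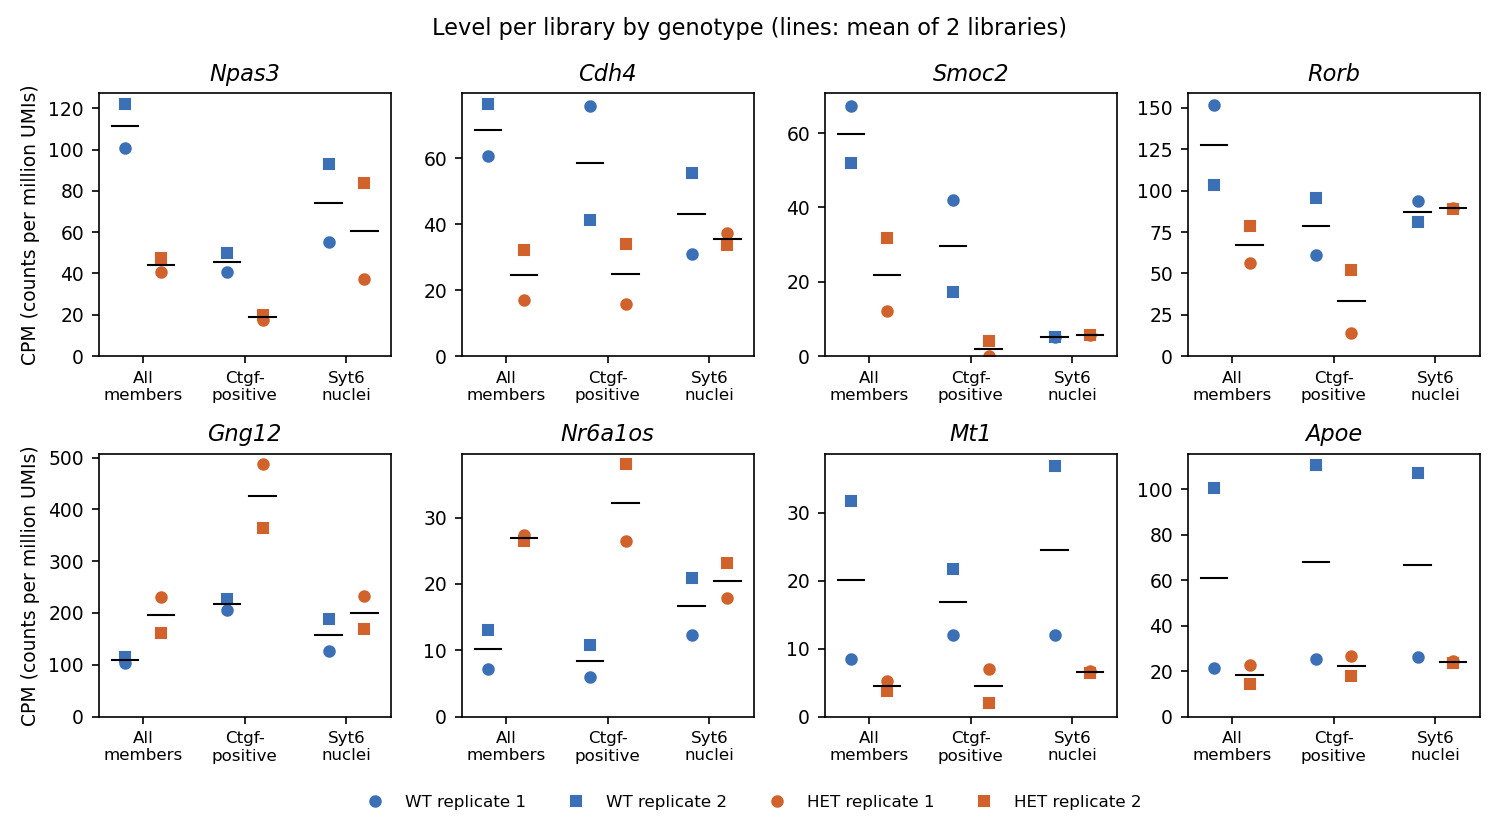
Level (CPM, vertical axes) of *Npas3*, *Cdh4*, *Smoc2*, *Rorb*, *Gng12*, *Nr6a1os*, *Mt1* and *Apoe* in WT and HET libraries, with 1 point per library, for all *Ctgf*/*Rxfp1* nuclei, the *Ctgf*-positive nuclei and the *Syt6* nuclei. *Npas3* is lower in both HET libraries of the *Ctgf*/*Rxfp1* nuclei, and *Mt1* and *Apoe* are highest in WT replicate 2.

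The lists showed which differences moved with 1 library or with the mix of nuclei. The 10 layer 6b genes tested had a median HET against WT log2 fold change of -0.01, with 4 above 0 and 6 below. Without WT replicate 1 it was 0.04, with 7 above 0, and without WT replicate 2 it was -0.16, with 4 above 0. All 5 claustrum genes were below 0, with a median of -0.60, but without WT replicate 1 the direction turned, with 3 of 5 above 0 and a median of 0.12. The median was -1.06 without WT replicate 2 and -0.37 without HET replicate 1. The genotypes overlapped for *Synpr*, at 342, 161, 141 and 200.03 CPM, *Gnb4*, at 174, 65.1, 56.4 and 106 CPM, and *Oprk1*, but not for *Ntng2* and *Nr2f2*. WT replicate 1 was the highest for all 5 genes and also had the largest share of claustrum-gene nuclei, 34.5%. All 7 corticothalamic genes tested were above 0, with a median of 0.25, beside 4299 of 8556 over all genes and a median of 0.00. The corticothalamic median fell to 0.080 without WT replicate 2 and to 0.076 without HET replicate 2, with 5 of 7 genes above 0 in each, and to 0.056 without the claustrum-gene nuclei, with 4 of 7 above 0. Fewer nuclei of a kind and less RNA per nucleus cannot be told apart in summed counts.

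Metallothioneins, small proteins that bind zinc and copper, were examined because the study turned on metal ions. *Mt1* stood at 8.45, 31.8, 5.23 and 3.78 CPM and *Mt3*, the form known from neurons and astrocytes, at 14.4, 36.5, 9.31 and 12.8 CPM. *Apoe* stood at 21.3, 101, 22.7 and 14.2 CPM and *Aldoc* at 6.57, 29.2, 3.49 and 4.26 CPM. All 4 were highest in WT replicate 2. They were the tested genes of a list of 5, which also held *Mt2*, and all 4 were below 0 in HET, with a median log2 fold change of -1.87, and without WT replicate 2 the 2 that were tested had a median of -0.36. The cytosolic ribosomal protein genes followed the same library. Of 66 tested, 63 were below 0 in HET with a median of -0.53, and without WT replicate 2, 36 of 56 were above 0 with a median of 0.12. The oligodendrocyte list, led by *Mbp*, summed to 40.4, 217, 118 and 61.0 CPM, again highest in WT replicate 2, while the astrocyte list, led by *Slc4a4*, summed to 141, 128, 90.1 and 149 CPM. The part of RNA from other cells in these values was not tested.

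The difference between genotypes was also compared with that in the *Syt6* nuclei. No gene of 8773 passed an adjusted p under 0.05 in the quasi-likelihood test of the interaction, and 447 (5.1%) had an unadjusted p under 0.05 and 111 (1.27%) one under 0.01. A fit without 1 library left 1 genotype with a single mouse, which was assumed to vary like the other libraries. The count of 0 genes with an adjusted p under 0.05 rested on all 4 libraries and the detection filter. It was 34 without WT replicate 1, 54 without WT replicate 2, 3 without HET replicate 1, 11 without HET replicate 2 and 52 without the filter. Of the 20 genes named in the genotype comparison, *Npas3*, *Cdh4*, *Fstl4*, *Smoc2* and *Rorb* were called without WT replicate 2 and without the filter, *Npas3*, *Cdh4*, *Rorb* and *Gm26905* without WT replicate 1, *Npas3* without HET replicate 1, and *Cdh4*, *Smoc2* and *Rorb* without HET replicate 2. With all libraries and the filter, among these 20 genes the smallest adjusted p was that of *Rorb*, 0.343 for a difference of -0.99 on the log2 scale, and the largest difference was that of *Smoc2*, -1.60 (adjusted p = 0.458).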

How the data were processed

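Nuclei from 4 brains, 2 WT and 2 *Csf1r*+/-, were profiled with 10x Genomics 3′ chemistry. The authors deposited raw UMI counts per gene and nucleus, made with Cell Ranger (version 5.0.0 per the file headers) on mm10, for 31053 genes. Library totals before filtering were 112226479, 89727416, 89436507 and 89799327 UMIs. Following the study's filter, nuclei with 500 to 50000 UMIs, over 200 genes and under 5% mitochondrial UMIs were kept, leaving 16114 of 16415, 15247 of 16301, 9589 of 9905 and 11182 of 11369. The rule for the *Ctgf*/*Rxfp1* nuclei, the comparison nuclei and the gene lists were chosen with earlier results of these data known.

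Counts were summed per library and kind. Genes detected in at least 10% of nuclei of either side and with at least 10 counts were tested with edgeR 4.0.16 (R 4.3.3) using TMM factors and the quasi-likelihood test, two-sided, with Benjamini-Hochberg adjustment at 0.05. Genotype fits had no covariate, and comparisons of kinds had library as a block. The study used edgeR's likelihood-ratio test at an unadjusted p under 0.01 with the same detection filter. Genes used by a rule were left out. Shares and genes per nucleus were compared with exact permutation tests over the 4 libraries. Thinning to 3000 UMIs left out nuclei below that depth, 7761 of 31361 in WT and 2847 of 20771 in HET. Doublet scores came from Scrublet (scanpy 1.11.5), with the highest-scoring nuclei of each library, 0.8% per 1000 nuclei, called high, and no nucleus was removed in the main results. The members were clustered with Leiden (leidenalg 0.10.2). Named genes were, for each comparison of kinds, the 15 with the largest positive and the 15 with the largest negative log2 fold change past the threshold and of 1 sign in all libraries (8 and 8 between *Ctgf*-positive and *Rxfp1*-only nuclei), and for genotype the 10 higher and 10 lower with the smallest p among genes whose libraries did not overlap, besides list members with at least 10 counts. Alternatives were DESeq2 1.42.0, other normalizations, filters and rules, and leaving out each library. Restricting the members to *Ctgf*-positive nuclei or to those without claustrum genes was added after seeing the data. The testing steps were checked on simulated counts. Summed counts carry no model of nuclei within a mouse, and intervals from counting cover counting error only. Values of 2 genes that the naming rule or the lists would give are not reported here.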

Additional observations from a re-analysis of the deposited data

How the results depend on the processing

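With 2 mice per genotype, genotype results rested on single libraries, and a p over the threshold does not show that the genotypes were alike. Of the genotype comparison, adjusted calls ranged from 0 to 8 when 1 library was left out (8 without HET replicate 2), DESeq2 gave 1 and edgeR's likelihood-ratio test gave 4. The other alternatives gave 0. The 47 genes at an unadjusted p under 0.01 became 77 without the detection filter, 24 with DESeq2, 85 under the stricter rule, 72 with the likelihood-ratio test, 116 in *Ctgf*-positive nuclei alone and 57 to 171 when 1 library was left out (171 without WT replicate 2, 106 without WT replicate 1, 98 without HET replicate 2). The cause was not tested.

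The labels did not say whether replicate numbers pair the mice. Deviations of replicates with the same number had a correlation of -0.0524 across genes, and such a value does not exclude a pairing. With the replicate block there were 0 adjusted calls and 39 at an unadjusted p under 0.01.

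Against the *Syt6* nuclei the 1814 genes became 1104 with DESeq2 and 1045 with no library block, and against the *Tshz2* nuclei the 1897 became 1132 and 1081. Between *Ctgf*-positive and *Rxfp1*-only nuclei the 1202 became 738 with DESeq2 and 496 under the stricter rule, which held fewer nuclei. For the interaction the count of 0 became 52 without the detection filter and 3 to 54 when 1 library was left out. Leaving out 1 library gave 1492 to 1570, 1506 to 1676 and 905 to 1117 genes in the first 3 comparisons.

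The share of nuclei, 0.0968 percentage points higher in HET, was -0.121 among nuclei with at least 3000 UMIs, an alternative added after seeing the data, -0.0840 when these were also thinned to 3000 UMIs, -0.981 over *Slc17a7* nuclei, 0.151 under the stricter rule, 0.115 without high doublet scores and -0.0809 to 0.275 when 1 library was left out (-0.0632 without WT replicate 2, -0.0809 without HET replicate 2). The genes per nucleus, 225.5 more in HET, became -9.75 in members with at least 3000 UMIs thinned to that number and 89.3 to 361.8 when 1 library was left out. Among named genes, *Vwc2l* turned to -0.23 in *Ctgf*-positive nuclei, and *Ntng2* (-0.0037) and *Synpr* (-0.49) turned when nuclei with claustrum genes were left out, as that choice fixes. Under the stricter rule *Cplx3*, *Lpar1*, *Drd1*, *Col8a1*, *Pls3*, *Synpr*, *Gnb4* and *Nr2f2* lost their calls between *Ctgf*-positive and *Rxfp1*-only nuclei. Low depth limits *Nxph4*, *Car3* and *Csf1r*, each with few UMIs.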
